A study of Mus musculus with 7 samples.

Results

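Messenger RNA levels of 49 genes of the DNA replication machinery were followed in 5 mouse leukaemias of the B-cell acute lymphoblastic type (B-ALL). The genes were taken by name from a list of replication factors, and all 49 had an entry among the 24726 gene entries measured in every library. Polyadenylated RNA was sequenced from 3 leukaemias of genotype Cdkn2ab+/-Pax5Etv6/+, called Pax5-Etv6 B-ALL here, and from 2 of genotype Trp53-/- NrasG12D/+ with retroviral Myc, called control B-ALL. All animals were C57BL/6. The Pax5-Etv6 leukaemias have 1 Pax5 allele that makes the Pax5-Etv6 fusion and have lost 1 copy of the Cdkn2a-Cdkn2b locus. Their RNA came from whole lymph node taken straight from the animal. The control leukaemias lack the tumour suppressor Trp53, have an activated Nras allele and carry Myc on a retrovirus, and their RNA came from whole bone marrow cells after a short time in culture. Nothing in the labels mentions a sort. Tissue, culture and the labelled cDNA protocol go with genotype and cannot be told apart from it. Ages are not in the labels, nor is it said whether each library had its own animal: p-values then reflect only the spread among these libraries, which may be technical. In bulk RNA, fewer dividing cells and less transcript per dividing cell cannot be told apart.

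A cell copies its genome once per division. The origin recognition complex (ORC), Cdc6 and Cdt1 load the ring-shaped MCM helicase onto DNA, a step called licensing. The kinase pair Cdc7-Dbf4 and cyclin E kinase then help to turn the loaded ring, with Cdc45 and GINS, into a moving helicase, and DNA polymerases, the sliding clamp PCNA and its loader RFC, the single-strand binder RPA and the enzymes that supply deoxynucleotides do the synthesis. Most of these genes are switched on by E2F factors as cells enter S phase, and they are highly expressed in dividing B-cell precursors and leukaemias.

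The replication genes did not move as a block. In Pax5-Etv6 B-ALL, 5 of the 6 ORC genes, both subunits of the Cdc7-Dbf4 kinase, both E-type cyclins, the catalytic subunits of polymerases alpha and epsilon, the RFC genes Rfc1, Rfc4 and Rfc5 and the small RPA subunit Rpa3 were lower than in control B-ALL. The polymerase delta catalytic subunit Pold1, the large RPA subunit Rpa1, the thymidine kinase Tk1 and the lagging-strand enzymes Lig1 and Fen1 were higher, and none of the 6 MCM ring genes passed the test. A gene was called when its adjusted p was under 0.05, from limma on log2(TPM + 1) over 11805 tested genes. TPM is transcripts per 1000000, a level corrected for transcript length. Of the 49 genes, 19 fell, 5 rose and 25 were not called, so 49.0% were called against a background of 51.7% of all tested genes. By direction, 29.7% of all tested genes were lower and 21.9% higher. These shares of all tested genes are also the background for each count by role below. The share of replication genes called is thus near the background and is not a result about the list. Median-of-ratios scaling gave 8 higher and 17 lower genes in place of 5 and 19. The median log2 fold change of the 49 genes was -0.39, beside -0.11 for all tested genes. Fold changes are Pax5-Etv6 minus control with their standard error (SE) on the log2(TPM + 1) scale, where changes of low genes come out too small. Means carry the standard deviation (SD) over 3 and 2 libraries. Where a value is given per library, Pax5-Etv6 replicates 1, 2 and 3 come first and control replicates 1 and 2 follow.

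**Figure D1:**
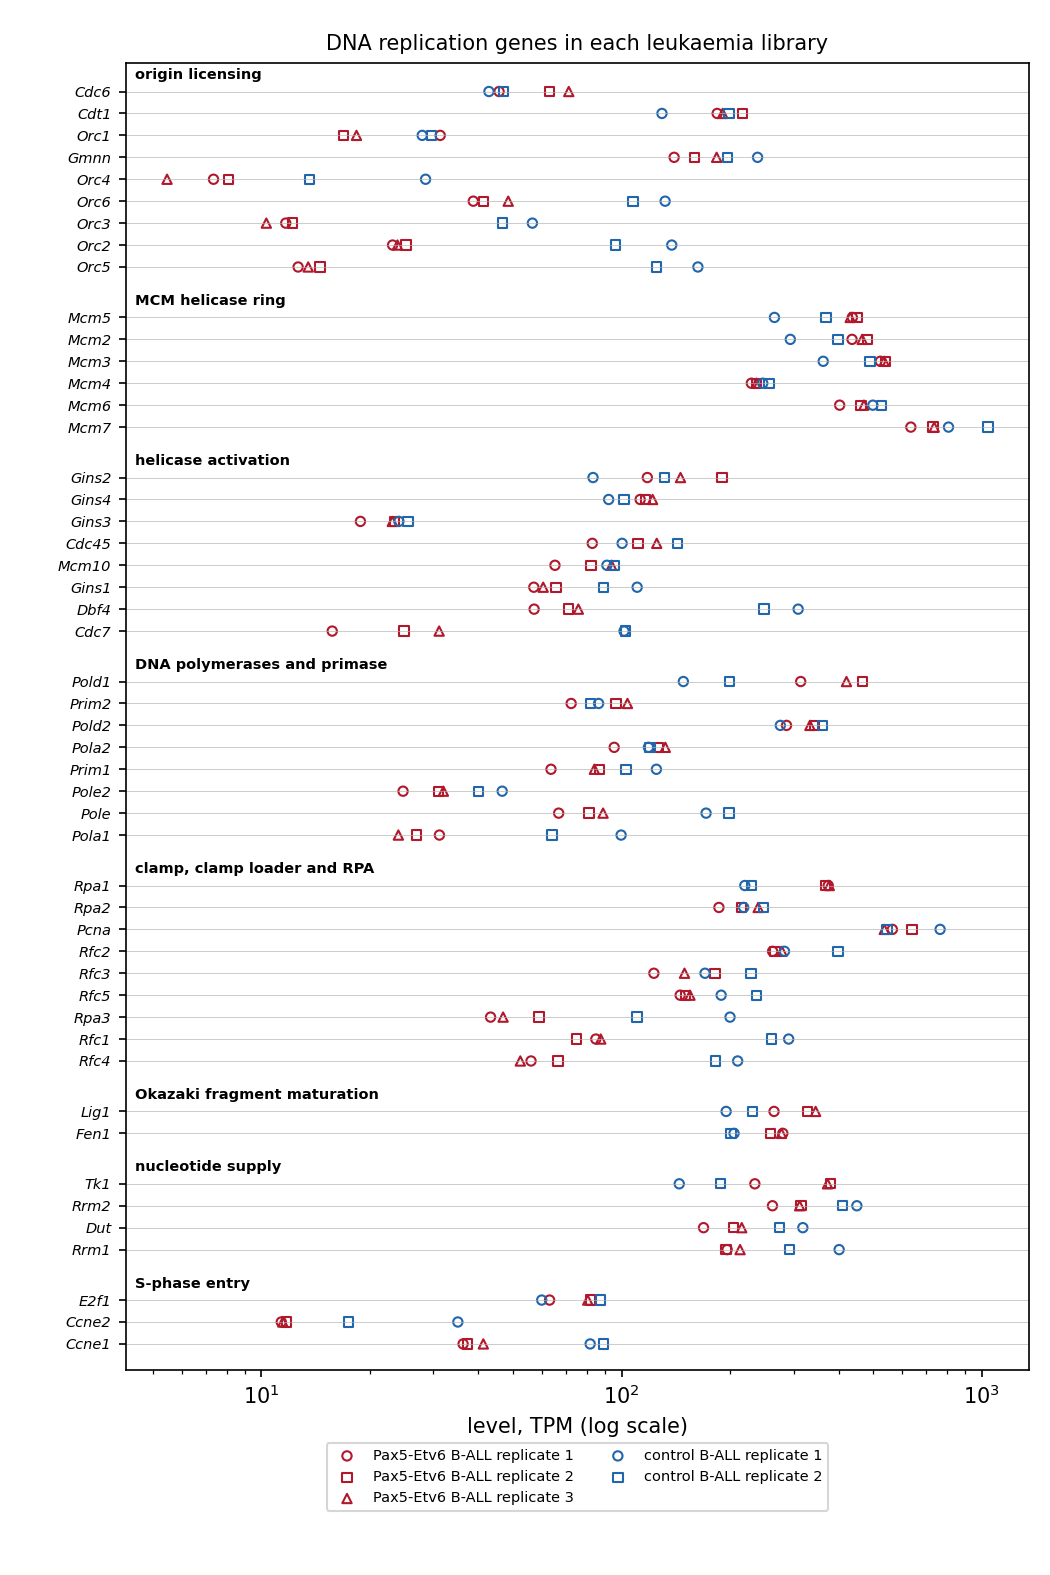
Level of each of the 49 DNA replication genes in each library, in TPM on a log axis. Red symbols are the 3 Pax5-Etv6 B-ALL libraries and blue symbols the 2 control B-ALL libraries, and genes are grouped by role. The ORC genes Orc2, Orc3, Orc5 and Orc6 and the kinase genes Cdc7 and Dbf4 show a wide gap between the colours, whereas the MCM ring genes lie close together.

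Depth and sample make-up were as follows. Whole reads recovered from the TPM values, as lower bounds, numbered 20110795 to 50994959 per library, and no replication gene had fewer than 272 in any library. Trp53, deleted in the controls, stood at 486, 454 and 489.9 TPM against 11.3 and 20.5 TPM, and Myc at 341, 387 and 286 against 1544 and 2095 TPM, as the genotypes name them. Summed B-lineage markers (7 of 7 with an entry) were at 9361 to 11770 TPM in Pax5-Etv6 B-ALL and 3150 to 4536 TPM in the controls. Of the tested markers of other cells, 5 of 8 macrophage, 7 of 7 neutrophil and 5 of 6 stromal and endothelial markers were higher in Pax5-Etv6 B-ALL. Their summed levels were 176 to 595 against 25.7 to 71.2 TPM, 30.5 to 249.5 against 0.285 to 0.487 TPM, and 313 to 991 against 80.4 to 91.6 TPM. Most of the stromal and endothelial sum in the controls was Pecam1, at 233, 222 and 293 TPM against 76.9 and 79.9 TPM. Col1a1 of the same list stood at 45.6, 405 and 85.2 TPM against 0.634 and 3.93 TPM. S100a8 was at 0 in both controls. T-cell markers summed to 4.61 to 10.7 against 0.494 to 0.980 TPM, with Cd3e, Cd4 and Cd8b1 at 0 in the controls, and NK-cell markers (with Gzmb, Ncr1 and Nkg7 at 0 there) to 1.28 to 3.91 against 0.435 to 0.871 TPM. Erythroid markers summed to 73.3 to 117 against 314 to 520.3 TPM, nearly all of it Tfrc, the transferrin receptor, in the controls. Of the 4 tested erythroid markers, 2 were higher and 1 lower in Pax5-Etv6 B-ALL. Alas2 stood at 73.7, 11.3 and 22.6 TPM against 0.583 and 0.372 TPM, and Slc4a1 at 8.99, 1.60 and 2.20 TPM against 0 and 0.0180 TPM. Tfrc went the other way, at 32.3, 56.5 and 51.8 TPM against 519 and 312 TPM. The haemoglobin genes Hba-a1, Hba-a2 and Hbb-b1 were listed at 0 in all 5 libraries, and Hbb-b2 had no entry. Whether these zeros reflect absent transcript or the way reads were counted was not tested. The part of these cells in the differences below was not tested.

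Among the licensing genes, transcripts of ORC were lower and its partners were not called. ORC marks origins and is built of 6 subunits. Their summed level was 125, 118 and 120 TPM in Pax5-Etv6 B-ALL and 546 and 419 TPM in control B-ALL, which is 3.98-fold higher in the controls. Of the 9 licensing genes, 5 fell, 4 were not called and 0 rose by limma. At an unadjusted p under 0.05, 6 were lower and 0 higher, and voom on recovered reads called 5 lower and 0 higher. Orc5, an ATPase-fold subunit, showed the largest difference of all 49 genes. It stood at 12.6, 14.5 and 13.5 TPM against 163 and 125 TPM, so its control mean was 10.6-fold the Pax5-Etv6 mean (-3.30 ± 0.19 SE, adjusted p = 0.000391). The 3 Pax5-Etv6 libraries were close to one another and far from both controls.

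Orc2, a core subunit, stood at 23.1, 25.2 and 23.9 TPM against 138 and 96.3 TPM (log2 change -2.21 ± 0.20, adjusted p = 0.000703). Orc3, its direct partner in the complex, stood at 11.7, 12.2 and 10.3 TPM against 56.5 and 46.7 TPM (log2 change -2.08 ± 0.21, adjusted p = 0.000886). Orc6, the smallest subunit, was at 38.7, 41.3 and 48.4 TPM against 132 and 108 TPM (log2 change -1.46 ± 0.18, adjusted p = 0.00153). In all 3 genes the groups were apart by more than the spread within either. Orc4, another ATPase-fold subunit and the lowest of the 49 genes in 4 of the 5 libraries, stood at 7.36, 8.09 and 5.47 TPM against 28.6 and 13.6 TPM (log2 change -1.40 ± 0.37, adjusted p = 0.0197). The controls differed more from each other than the lower of them did from the Pax5-Etv6 libraries. The Orc4 call was lost without control replicate 1 (-0.89, adjusted p = 0.111), without Pax5-Etv6 replicate 3 (adjusted p = 0.0533), without a filter on low values (0.0514) and with centring on the replication genes (0.175), and the lowest value was 0.0114. The deposited names of Orc3 and Orc4 carry a tag that reads as overlap with another gene. Where strand was not used in counting, reads of overlapping genes cannot be told apart, and the labels call only the Pax5-Etv6 libraries strand-specific.

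Orc1, the subunit that comes and goes with the cell cycle and carries the main ATPase, did not follow the other ORC genes. It stood at 31.4, 16.9 and 18.4 TPM against 27.9 and 29.7 TPM, with Pax5-Etv6 replicate 1 above both controls and replicates 2 and 3 below them (-0.41 ± 0.30, adjusted p = 0.278, 95% interval -1.13 to 0.30). Without Pax5-Etv6 replicate 1 it was called lower (-0.68, adjusted p = 0.0396). Within the complex, Orc1 made up 25.1%, 14.3% and 15.3% of the summed ORC level in Pax5-Etv6 B-ALL and 5.12% and 7.09% in the controls. The share of Orc5 was 10.1%, 12.3% and 11.2% against 29.8% and 29.8%. The make-up of the ORC transcripts thus differed along with their sum.

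The loaders and their inhibitor were not called. Cdc6, the ATPase that works with ORC to load MCM rings, stood at 45.7, 63.0 and 71.3 TPM against 42.8 and 46.9 TPM (log2 change 0.39 ± 0.22, adjusted p = 0.182). Cdt1, which brings the MCM ring to the origin, stood at 184, 217 and 191 TPM against 129 and 199 TPM (log2 change 0.29 ± 0.21, adjusted p = 0.274). In both genes the groups overlap. Cdc6 was called higher without Pax5-Etv6 replicate 1 (0.57, adjusted p = 0.0439) and Cdt1 without control replicate 2 (0.60, adjusted p = 0.0322). Gmnn, geminin, which blocks Cdt1 and so prevents a second round of licensing, stood at 140, 159 and 183 TPM against 238 and 197 TPM (log2 change -0.43 ± 0.17, adjusted p = 0.0758). Its groups do not overlap, as was the case in 36 of the 49 genes and in 72.2% of all tested genes.

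The helicase ring itself was among the most highly expressed parts of the machinery, and its summed levels overlapped between the groups. Mcm2 to Mcm7 together gave 2662, 2901 and 2875 TPM against 2474 and 3079 TPM. Mcm7 was the highest of the 49 genes in every library, at 635, 732 and 737 TPM against 808 and 1039 TPM (log2 change -0.39 ± 0.17, adjusted p = 0.1). Of the 6 genes 0 rose and 0 fell by limma, whereas 2 were higher and 0 lower at an unadjusted p under 0.05 and voom called 2 higher and 0 lower. These 2 by voom were Mcm5 and Mcm2. Mcm5 stood at 437, 450 and 431 TPM against 266 and 369 TPM (log2 change 0.49 ± 0.17, adjusted p = 0.0551), and Mcm2 at 436, 480.3 and 465 TPM against 294 and 398 TPM (log2 change 0.43 ± 0.17, adjusted p = 0.0769). Mcm3 was at 522, 541 and 535 TPM against 363 and 489 TPM (log2 change 0.34 ± 0.17, adjusted p = 0.131). The control libraries differed more from each other in these 3 genes than the Pax5-Etv6 libraries did. Mcm6 was at 403, 462 and 470.4 TPM against 498 and 526 TPM (log2 change -0.21 ± 0.14, adjusted p = 0.257), and Mcm4 at 229, 236 and 237 TPM against 246 and 257 TPM (log2 change -0.10 ± 0.12, 95% interval -0.40 to 0.20). The sign of Mcm4 turned under median-of-ratios scaling, quantile normalization and voom, and the signs of Mcm4, Mcm6 and Mcm7 turned with each library centred on the replication genes. Without control replicate 2, Mcm5 (0.72, adjusted p = 0.0116), Mcm2 (0.65, 0.0189) and Mcm3 (0.55, 0.024) were called higher. For none of the 6 genes did the levels of the groups overlap, as was the case in 72.2% of all tested genes. As shares of the ring, which were not tested, the groups overlapped for Mcm4, at 8.61%, 8.15% and 8.23% against 9.96% and 8.33%. Mcm7 took 23.9%, 25.2% and 25.6% of the summed level against 32.6% and 33.8%, and Mcm5 took 16.4%, 15.5% and 14.99% against 10.7% and 12.0%.

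Promoters of Orc1, Orc5, Mcm5 and Mcm6 are shown as examples. Whether their letters bear on the levels was not tested. RefSeq promoter windows (build GRCm38.p6, 250 bases before to 50 after the start of transcription) matched 40 of the 49 genes, with 49 windows since some genes have several starts. The windows were searched on both strands for the E2F-type letters TTTCCCGC, TTTGGCGC and TTTCGCGC, which can overlap one another when read on opposite strands. Each sequence is the 250 bases before the start, 5′ to 3′ on the strand of the gene, with matches in capitals. The windows are Orc1 at chr4:108579204-108579453 (plus strand), Orc5 at chr5:22550339-22550588 (minus strand), Mcm5 at chr8:75109259-75109508 (plus strand) and Mcm6 at chr1:128359706-128359955 (minus strand).
Orc1: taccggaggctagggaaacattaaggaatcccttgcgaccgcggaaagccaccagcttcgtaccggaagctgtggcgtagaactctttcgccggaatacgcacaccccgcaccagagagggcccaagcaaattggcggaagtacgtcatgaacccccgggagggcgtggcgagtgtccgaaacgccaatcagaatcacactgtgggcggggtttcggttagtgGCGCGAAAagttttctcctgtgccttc
Orc5: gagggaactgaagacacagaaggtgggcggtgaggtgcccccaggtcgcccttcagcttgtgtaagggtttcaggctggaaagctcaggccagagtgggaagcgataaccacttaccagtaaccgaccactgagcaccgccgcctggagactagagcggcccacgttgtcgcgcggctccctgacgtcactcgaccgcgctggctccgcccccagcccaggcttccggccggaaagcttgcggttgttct
Mcm5: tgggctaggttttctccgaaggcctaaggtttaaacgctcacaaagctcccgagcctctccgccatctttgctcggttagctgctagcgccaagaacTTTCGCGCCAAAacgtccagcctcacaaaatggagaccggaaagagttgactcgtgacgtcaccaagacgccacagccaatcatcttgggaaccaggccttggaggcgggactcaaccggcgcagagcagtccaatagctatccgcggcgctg
Mcm6: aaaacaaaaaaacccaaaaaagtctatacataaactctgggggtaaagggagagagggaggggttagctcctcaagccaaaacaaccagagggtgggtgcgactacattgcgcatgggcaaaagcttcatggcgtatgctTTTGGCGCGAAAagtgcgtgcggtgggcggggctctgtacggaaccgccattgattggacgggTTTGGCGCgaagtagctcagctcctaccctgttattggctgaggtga
The Orc1 sequence holds 1 match, starting 27 bases before the start of transcription, the Mcm5 sequence a pair of overlapping matches at 153 and 149 bases before it, and the Mcm6 sequence 3 matches at 110, 106 and 47 bases before it. None of these letters is in the Orc5 window. Among the other ORC and MCM windows of 300 bases, those of Orc3 and Mcm3 hold at least 1 match. Those of Orc2, Orc4, Orc6 and Mcm2 hold none, and Mcm7 has matches in 1 of its 2 windows. Over the full 300 bases, 14 of the 49 windows (28.6%) hold at least 1 match, against 1.84% of 32851 promoters of the same length and 3.59% of those of tested genes. Matches were in 10 of 21 windows of genes that were not called, in 2 of 20 windows of genes that fell (Orc3 and Pola1) and in 2 of 8 windows of genes that rose (Pold1 and Lig1). The letters CCAAT, searched likewise, were in 25 of the 49 windows (51.0%), against 37.4% of all promoters and 38.3% of those of tested genes. The E-box CACGTG was in 6 (12.2%), against 7.15% and 10.2%. A match describes these letters only.

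**Figure D2:**
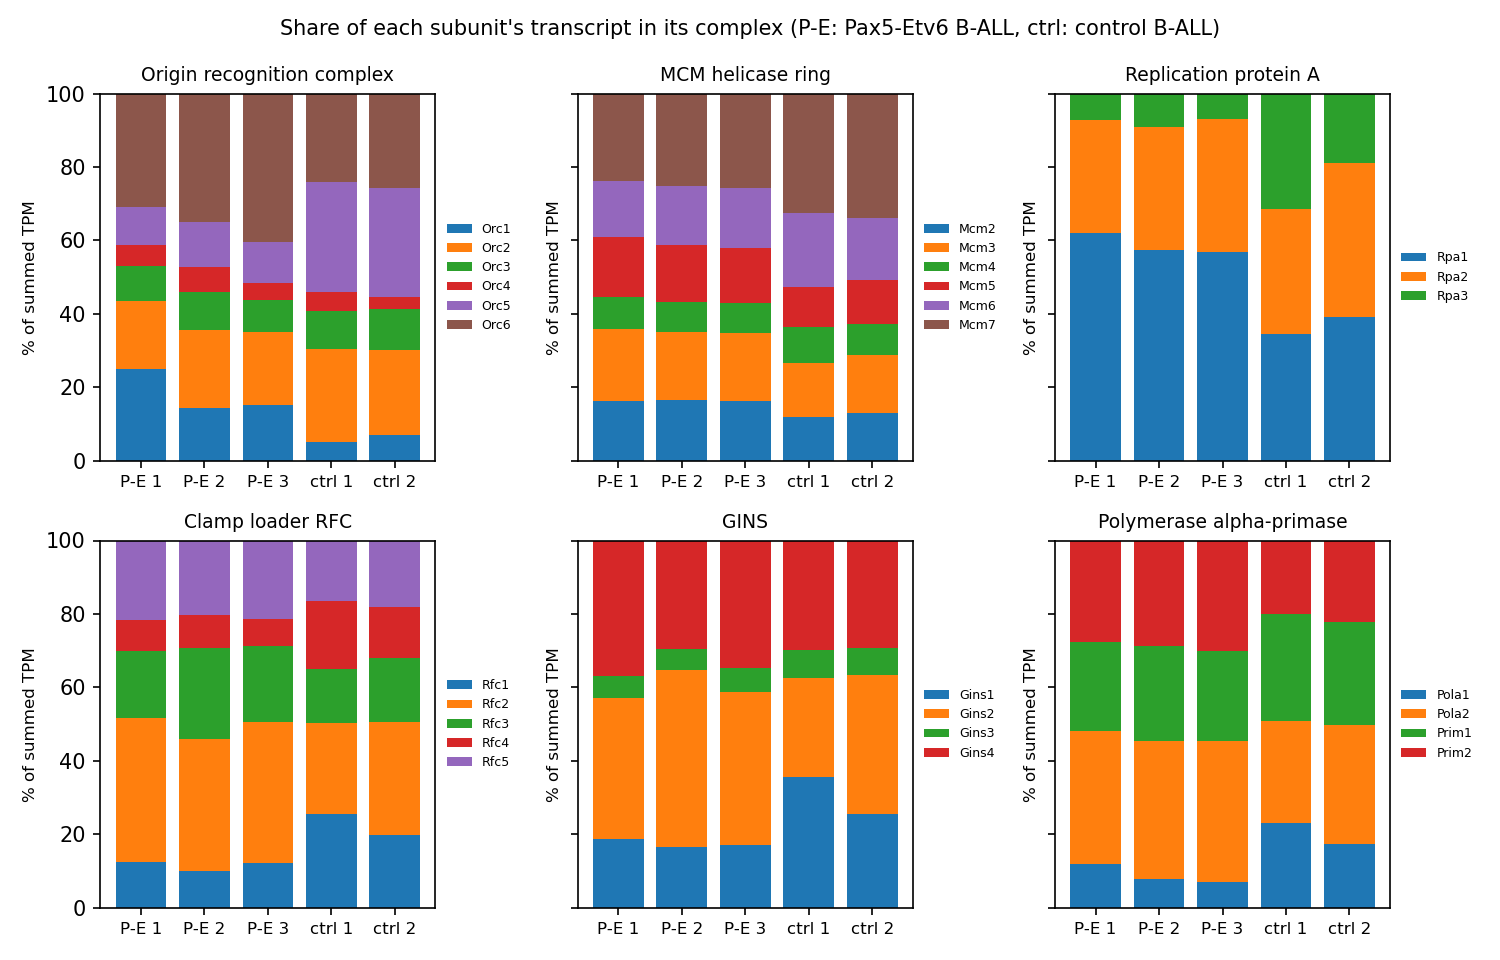
Share of each subunit in the summed TPM of its complex, in percent, for the 3 Pax5-Etv6 B-ALL libraries (P-E) and the 2 control B-ALL libraries (ctrl). Orc5 takes a larger part of ORC in the controls (29.8% in both) and Rpa1 a larger part of RPA in Pax5-Etv6 B-ALL (56.8% to 62.0%).

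Among the genes that activate the helicase, the kinase stood apart from the helicase subunits. Of 8 genes, 3 fell, 5 were not called and 0 rose by limma, with 0 higher at an unadjusted p under 0.05 and 0 by voom. Cdc7, the kinase that phosphorylates the MCM ring, stood at 15.7, 24.9 and 31.1 TPM against 102 and 102 TPM (log2 change -2.10 ± 0.29, adjusted p = 0.00218). Dbf4, the subunit that switches Cdc7 on, stood at 57.1, 71.2 and 75.8 TPM against 309 and 248 TPM (log2 change -2.02 ± 0.18, adjusted p = 0.000711). Both subunits were about 4-fold lower, and the groups lay far apart. Dbf4 stayed above Cdc7 throughout, by 3.63, 2.86 and 2.43 times against 3.04 and 2.42 times.

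Of the 4 GINS subunits, which tie the polymerase to the helicase, Gins1 was the one that passed the test. It fell, at 57.0, 65.7 and 60.5 TPM against 110.4 and 89.0 TPM (log2 change -0.69 ± 0.17, adjusted p = 0.0143), a call lost without control replicate 1 (-0.54, adjusted p = 0.0627) and with centring on the replication genes (-0.05, adjusted p = 0.875). The lowest value over all alternatives was 0.0131. Gins2, whose name carries the overlap tag, was at 118, 190 and 146 TPM against 83.3 and 131 TPM (log2 change 0.50 ± 0.27, adjusted p = 0.163). Gins4 was at 113, 116 and 122 TPM against 92.0 and 101 TPM (log2 change 0.27 ± 0.14, adjusted p = 0.137) and was called higher under median-of-ratios scaling, quantile normalization and centring. Gins3 was lowest of the 4 in every library, at 18.8 to 23.4 TPM against 24.1 and 25.5 TPM (log2 change -0.19 ± 0.20, adjusted p = 0.468). Cdc45, the helicase partner of GINS, had 82.9, 111 and 125 TPM against 100.3 and 143 TPM (log2 change -0.19 ± 0.24, adjusted p = 0.525), and Mcm10, which helps to start the fork, 65.3, 82.2 and 93.7 TPM against 91.0 and 95.5 TPM (log2 change -0.23 ± 0.19, adjusted p = 0.343). In Cdc45 and Mcm10 the groups overlap.

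Among the replicative polymerases, 3 catalytic subunits passed the test and their partner subunits in the list did not. Of 8 genes 1 rose, 2 fell and 5 were not called. Pold1, the catalytic and proofreading subunit of polymerase delta, which makes the lagging strand, stood at 314, 466 and 421 TPM against 148 and 199 TPM (log2 change 1.20 ± 0.22, adjusted p = 0.00593). Pole, the corresponding subunit of polymerase epsilon, which makes the leading strand, stood at 66.9, 81.2 and 88.8 TPM against 172 and 199 TPM (log2 change -1.23 ± 0.17, adjusted p = 0.00244). Neither gene had overlapping groups. The level of Pold1 was 4.70, 5.74 and 4.74 times that of Pole in Pax5-Etv6 B-ALL and 0.865 and 1.00 times in the controls. Pold1 has the overlap tag, so its level may hold reads of a neighbour. The partner subunits in the list did not pass the test. Pold2, also tagged, was at 287 to 342 TPM against 276 and 362 TPM (log2 change 0.02 ± 0.17, adjusted p = 0.938), and Pole2 at 24.7 to 32.0 TPM against 46.6 and 40.0 TPM (log2 change -0.56 ± 0.20, adjusted p = 0.0551). Of polymerase delta and epsilon subunits outside the list, Pold4 was called higher (0.77 ± 0.24, adjusted p = 0.0363) and Pole4 lower (-0.62 ± 0.21, adjusted p = 0.0447). The controls stood apart in Pole4, at 66.4, 66.0 and 57.4 TPM against 119.9 and 79.9 TPM. Its call was not followed over the alternatives. Pold3 and Pole3 were not called.

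In polymerase alpha-primase, which lays down the primers, the catalytic subunit Pola1 fell, at 31.2, 26.9 and 24.0 TPM against 99.6 and 64.0 TPM (log2 change -1.52 ± 0.24, adjusted p = 0.00348, but 0.0584 with centring on the replication genes, with 0.00275 as the lowest of all alternatives). Its accessory subunit Pola2 was at 95.3, 126 and 132 TPM against 119 and 120 TPM (log2 change -0.03 ± 0.18, adjusted p = 0.901), with the controls inside the range of the Pax5-Etv6 libraries. Prim1, the primase subunit that makes RNA, was at 63.6, 86.7 and 84.0 TPM against 125 and 103 TPM (log2 change -0.54 ± 0.19, adjusted p = 0.0542). Prim2, the large primase subunit, was at 72.4, 96.5 and 104 TPM against 86.3 and 82.0 TPM (log2 change 0.09 ± 0.19, adjusted p = 0.703). Pola1 made up 6.98% to 11.9% of the summed level of the 4 genes in Pax5-Etv6 B-ALL and 23.2% and 17.4% in the controls.

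RPA coats the single strands laid bare at the fork and is a trimer of large, middle and small subunits. Its summed level was 604, 643 and 663 TPM against 638 and 587 TPM, with overlapping groups. Rpa1, the large DNA-binding subunit, rose, at 374, 369 and 377 TPM against 220 and 229 TPM (log2 change 0.73 ± 0.12, adjusted p = 0.00443). Rpa3, the smallest, fell, at 43.3, 59.0 and 46.9 TPM against 200 and 110.4 TPM (log2 change -1.57 ± 0.28, adjusted p = 0.00518), and the controls differed from each other by nearly 2 times. Rpa2, the middle subunit, was at 186, 216 and 239 TPM against 218 and 247 TPM (log2 change -0.13 ± 0.16, adjusted p = 0.53). Rpa1 was 8.66, 6.25 and 8.04 times as high as Rpa3 in Pax5-Etv6 B-ALL and 1.10 and 2.08 times in the controls.

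PCNA, the sliding clamp that holds polymerases on DNA, did not pass the test, whereas several genes of its loader fell. Pcna stood at 564, 639.9 and 536 TPM against 765 and 545 TPM (log2 change -0.16 ± 0.19, adjusted p = 0.509). RefSeq names 2 pseudogenes of Pcna, so reads could be shared with these copies and its level is uncertain. The summed RFC level was 671, 740 and 723 TPM against 1143 and 1306 TPM. Rfc1, the large subunit, stood at 84.8, 74.8 and 87.5 TPM against 291 and 261 TPM (log2 change -1.73 ± 0.15, adjusted p = 0.000602). Rfc4, a small subunit whose name carries the overlap tag, stood at 56.0, 66.5 and 52.3 TPM against 209.9 and 182 TPM (log2 change -1.73 ± 0.17, adjusted p = 0.000779). Both were lower in each Pax5-Etv6 library by more than the spread within the groups. Rfc5 was at 145, 150.4 and 155 TPM against 189 and 237 TPM (log2 change -0.49 ± 0.15, adjusted p = 0.0336). This call was lost in 10 of 17 alternatives (range 0.0244 to 0.482), among them each of those without a Pax5-Etv6 replicate (0.0708, 0.102 and 0.0821 without replicates 1, 2 and 3) and without control replicate 2 (0.0894). Rfc2 and Rfc3 were not called, at 262 to 279 TPM against 283 and 399 TPM (log2 change -0.32 ± 0.18, adjusted p = 0.17) and 123 to 182 TPM against 170.4 and 228 TPM (log2 change -0.40 ± 0.22, adjusted p = 0.164). Rfc2 was called lower without control replicate 1 (-0.57, adjusted p = 0.0328).

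The enzymes that finish the lagging strand were both higher. Fen1, the nuclease that trims the flap of an Okazaki fragment, stood at 280.1, 259 and 278 TPM against 205 and 201 TPM (log2 change 0.42 ± 0.13, adjusted p = 0.0325). Lig1, the ligase that seals it and whose name carries the overlap tag, stood at 265, 327 and 345 TPM against 195 and 231 TPM (log2 change 0.55 ± 0.17, adjusted p = 0.0364). The groups do not overlap in either gene, but both differences were small and their calls fragile. The Fen1 call was lost without any 1 of the 5 libraries (adjusted p = 0.0779, 0.0925 and 0.11 without Pax5-Etv6 replicates 1, 2 and 3, and 0.066 and 0.0575 without control replicates 1 and 2). The Lig1 call was lost without Pax5-Etv6 replicate 2 (0.111) or 3 (0.113) and without control replicate 1 (0.167), and also with no filter (0.0609). Without a mean-variance trend both were lost (0.0816 for Fen1 and 0.0722 for Lig1). Over all alternatives the adjusted p ran from 0.00487 to 0.11 for Fen1 and from 0.00129 to 0.167 for Lig1.

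All 4 genes of nucleotide supply in the list were called, 3 lower and 1 higher. Of all tested genes, 51.7% were called, 29.7% lower and 21.9% higher, and the difference was not tested. Ribonucleotide reductase makes deoxynucleotides. Its large subunit Rrm1 stood at 196, 195 and 213 TPM against 401 and 292 TPM (log2 change -0.76 ± 0.17, adjusted p = 0.0119), and its S-phase small subunit Rrm2 at 262, 314 and 312 TPM against 449.6 and 409.8 TPM (log2 change -0.54 ± 0.15, adjusted p = 0.0235). Dut, which removes dUTP so that uracil is kept out of DNA, stood at 169, 205 and 215 TPM against 318 and 275 TPM (log2 change -0.60 ± 0.16, adjusted p = 0.0232). In these 3 genes each Pax5-Etv6 library was below both controls. Tk1, the salvage enzyme that phosphorylates thymidine and whose name carries the overlap tag, went the other way, at 234, 380.4 and 373 TPM against 144 and 188 TPM (log2 change 0.96 ± 0.25, adjusted p = 0.0206). Without control replicate 1 the calls of Rrm2 (0.0949), Dut (0.112) and Tk1 (0.142) were lost. Rrm2 also lost its call without Pax5-Etv6 replicate 1 (0.0547), 2 (0.0572) or 3 (0.0549), Dut without replicate 2 (0.0563), and Tk1 without replicate 2 (0.0517) or 3 (0.0581). Without a mean-variance trend Rrm2 (0.0548) and Dut (0.0509) were not called. Over all alternatives the adjusted p ran from 0.0216 to 0.654 for Rrm2, from 0.0214 to 0.842 for Dut and from 0.000899 to 0.142 for Tk1. With each library centred on the replication genes Rrm1 was not called (-0.12, adjusted p = 0.703, with 0.0063 as the lowest of all alternatives) and the signs of Rrm2 and Dut turned.

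Both E-type cyclins, which drive Cdk2 at the start of S phase, fell, and their activator E2f1 was not called. Ccne1 stood at 36.3, 37.3 and 41.3 TPM against 81.8 and 88.9 TPM (log2 change -1.14 ± 0.16, adjusted p = 0.00217). Ccne2, tagged for overlap, stood at 11.4, 11.8 and 11.5 TPM against 35.1 and 17.5 TPM (log2 change -1.04 ± 0.32, adjusted p = 0.0335). The controls stood apart from each other in Ccne2, and its call was lost without control replicate 1 (-0.56, adjusted p = 0.135) and without Pax5-Etv6 replicate 2 (0.0759) or 3 (0.0749). Quantile normalization (0.0542), median-of-ratios scaling (0.052), fitting with no filter (0.0679) and centring (0.393) ended it too, and the lowest value was 0.00771. With centring on the replication genes Ccne1 was not called (-0.49, adjusted p = 0.0537, with 0.00181 as the lowest of all alternatives). E2f1, the transcription factor that induces many of these genes, stood at 63.1, 82.0 and 80.5 TPM against 60.0 and 87.2 TPM (log2 change 0.05 ± 0.22, adjusted p = 0.874, 95% interval -0.48 to 0.57), with overlapping groups.

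**Figure D3:**
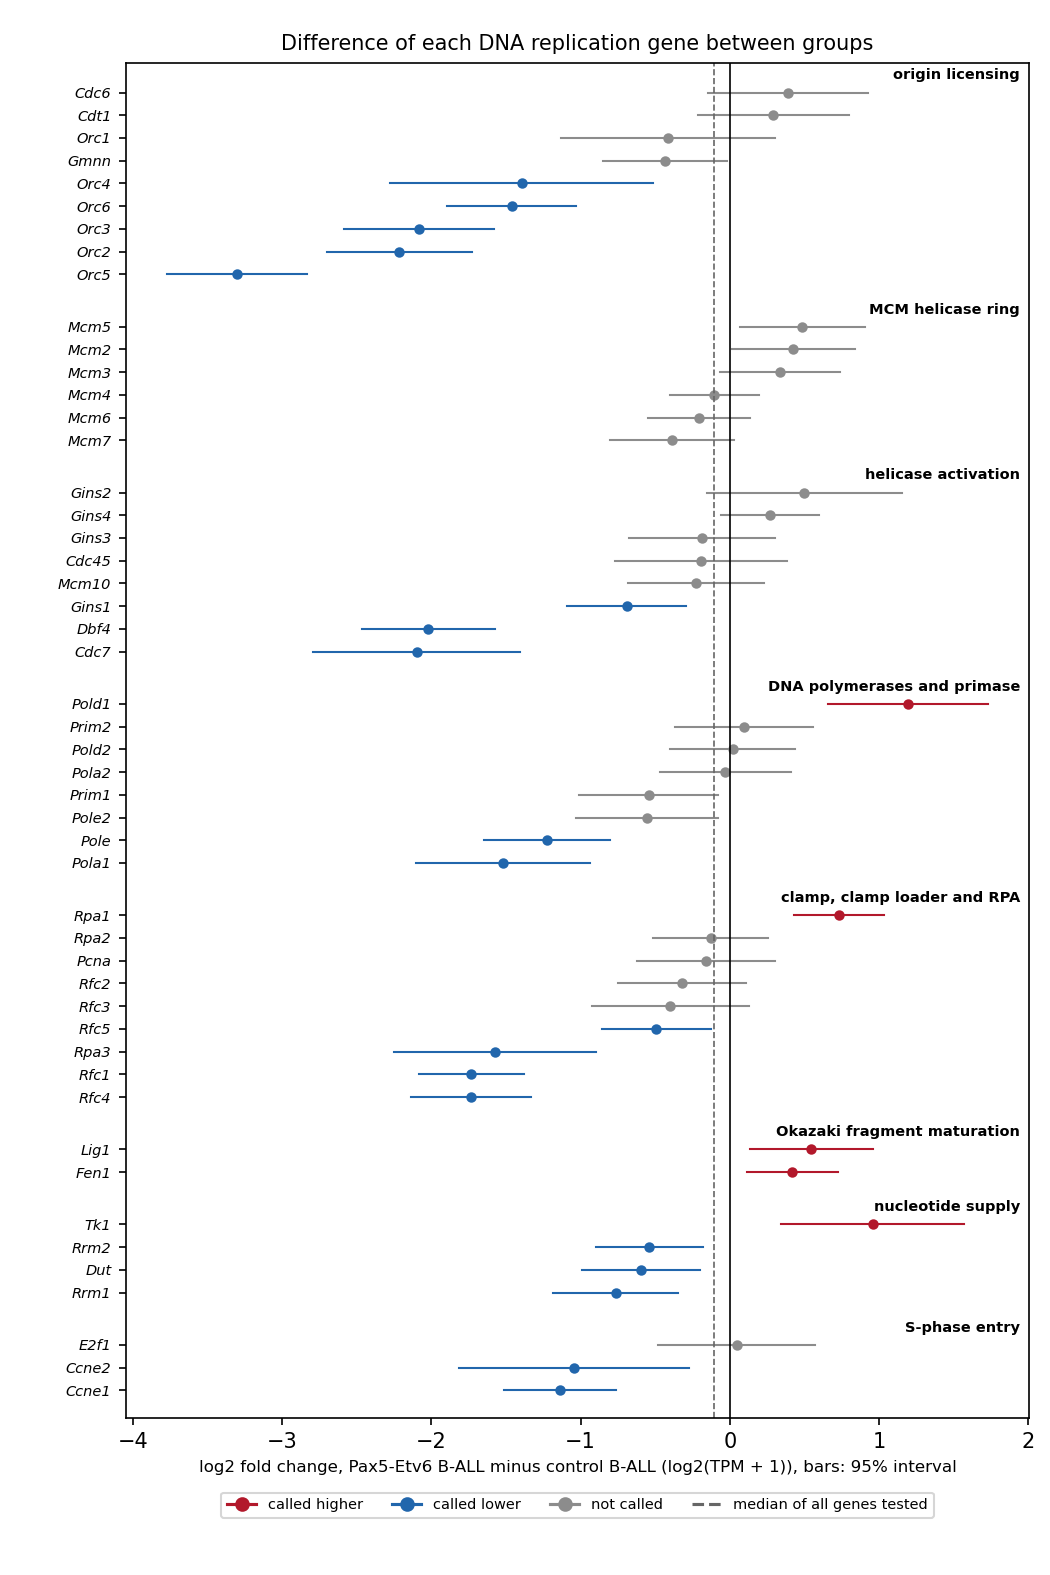
Log2 fold change of each DNA replication gene, Pax5-Etv6 B-ALL minus control B-ALL, with its 95% interval from limma, and genes grouped by role. Blue genes fell, red genes rose and grey genes were not called, and the dashed line is the median of all tested genes (-0.11). Orc5 is farthest to the left (-3.30) and Pold1 farthest to the right (1.20).

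Of the 24 called genes, 12 kept their call and direction in every alternative that held them. The 10 that fell were Orc2, Orc3, Orc5, Orc6, Cdc7, Dbf4, Pole, Rfc1, Rfc4 and Rpa3, and the 2 that rose were Pold1 and Rpa1. By size, 14 genes fell by a log2 fold change of at least 1 and 1 rose by as much. In all tested genes, 36.7% were called with a change of that size and 21.2% fell by as much. Without the 9 genes whose names carry the overlap tag, 15 of 40 fell and 2 rose. With all tagged entries left out of the fit, 3036 of 9929 tested genes fell and 2201 rose. The risers Pold1, Tk1 and Lig1 are tagged, and Rpa1 and Fen1 are not.

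Within Pax5-Etv6 B-ALL, 1 library tended to be lowest. Replicate 1 was the lowest of the 3 libraries in 38 of the 49 genes, replicate 3 the highest in 24 and replicate 2 the highest in 22. The same counts over all tested genes are not given here, so whether this order is particular to replication genes was not tested. Orc1, Pola1 and Fen1 were the genes in which replicate 1 was highest. The median level of the 49 genes was 95.3, 116 and 125 TPM in replicates 1, 2 and 3 and 163 and 188 TPM in the controls. Genes of a mitosis list, too, were lowest in replicate 1, with summed levels of 4228, 4477 and 4861 TPM against 5816 and 5918 TPM. The proliferation marker Mki67 stood at 249.7, 258 and 297 TPM against 362 and 321 TPM (log2 change -0.35 ± 0.15, adjusted p = 0.0884). Between the controls, replicate 1 was higher in 21 of the 49 genes and replicate 2 in 28.

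Genes of the same pathway outside the list were read from lists drawn up with the roles. Each count below stands beside the background of 51.7% of all tested genes called, 29.7% lower and 21.9% higher. Of 28 other fork and origin genes, 2 rose and 9 fell, with 17 left uncalled and a median of -0.29. Top2b, a topoisomerase that untangles DNA, stood at 96.97 ± 7.84 against 317 ± 98.1 TPM (log2 change -1.67 ± 0.21, adjusted p = 0.00178). The fork-protection factor Tipin stood at 122 ± 21.8 against 405 ± 224 TPM (log2 change -1.63 ± 0.36, adjusted p = 0.0104), and the RNase H2 subunit Rnaseh2b at 49.1 ± 4.97 against 136 ± 8.28 TPM (log2 change -1.46 ± 0.16, adjusted p = 0.00107). The 2 that rose were Rnaseh2c, another subunit of the same enzyme (0.84 ± 0.20, adjusted p = 0.0132), and Pold4, the smallest subunit of polymerase delta (0.77 ± 0.24, adjusted p = 0.0363). Subunits of 1 enzyme thus differed in direction here as in RPA. The calls of Rnaseh2c (0.0692) and Pold4 (0.208) were lost without control replicate 1, and that of Pold4 also without Pax5-Etv6 replicate 1 (0.0666) or 2 (0.0728), with no filter (0.0726) and without a mean-variance trend (0.0618). With centring Tipin was not called (0.0648).

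Of 22 other nucleotide-supply genes, 2 rose and 12 fell, with 8 left uncalled and a median of -0.76. That is 63.6% called, against 51.7% of all tested genes, and the difference was not tested. Ppat, the first enzyme of purine synthesis, stood at 44.7 ± 3.89 against 274 ± 66.1 TPM (log2 change -2.57 ± 0.19, adjusted p = 0.000508). The deoxycytidylate deaminase Dctd stood at 5.37 ± 3.69 against 44.1 ± 4.88 TPM (log2 change -3.05 ± 0.60, adjusted p = 0.00748), and Ctps, which makes CTP, at 67.6 ± 28.1 against 235 ± 28.2 TPM (log2 change -1.85 ± 0.31, adjusted p = 0.00443). The 2 that rose serve mitochondrial nucleotide salvage: Dguok (1.16 ± 0.21, adjusted p = 0.00512) and Tk2 (1.00 ± 0.28, adjusted p = 0.0238). Tyms, thymidylate synthase, was at 48.6 ± 6.53 against 48.7 ± 9.17 TPM (adjusted p = 0.996). Rrm2b, the p53-responsive small subunit of ribonucleotide reductase, was at 21.0 ± 1.76 against 35.4 ± 10.9 TPM (log2 change -0.69 ± 0.24, adjusted p = 0.0527), and was called lower without control replicate 2 (adjusted p = 0.018). The Dctd call was lost without control replicate 1 (0.0688), and that of Tk2 without control replicate 1 (0.123) or 2 (0.0517) or Pax5-Etv6 replicate 2 (0.087) or 3 (0.0738). The name of Ppat carries the overlap tag.

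Of 11 genes that rebuild chromatin behind the fork, 3 rose and 5 fell, with 3 left uncalled and a median of -0.72. Chaf1b, a subunit of the histone chaperone CAF-1, was higher (0.87 ± 0.18, adjusted p = 0.00915), as were the histone chaperone Asf1b (0.59 ± 0.16, adjusted p = 0.0201) and Uhrf1, which guides DNA methylation to new strands (0.79 ± 0.22, adjusted p = 0.0253). The remodeller Hells (-1.61 ± 0.32, adjusted p = 0.00778) and the histone-binding subunits Rbbp7 (-1.42 ± 0.15, adjusted p = 0.00107) and Rbbp4 (-1.20 ± 0.13, adjusted p = 0.00104) were lower. Rbbp4 is the partner of Chaf1b in CAF-1, so this complex too had members on both sides. Both Rbbp genes carry the overlap tag. The calls of Asf1b and Uhrf1 were lost without Pax5-Etv6 replicate 2 (0.0612 and 0.0684) or 3 (0.0708 and 0.0687) and without control replicate 1 (0.0764 and 0.157), and that of Uhrf1 also with no filter (0.0576). With centring Hells (0.0824) and Rbbp4 (0.0508) were not called.

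Of 11 replication-checkpoint genes 6 fell, 5 were not called and 0 rose by limma, with 0 higher at an unadjusted p under 0.05 and 1 by voom (median -0.71). Atr, the kinase that senses stalled forks, stood at 7.42 ± 0.289 against 54.5 ± 32.9 TPM (log2 change -2.58 ± 0.39, adjusted p = 0.00285), and its effector kinase Chek1 at 13.9 ± 1.06 against 58.6 ± 33.1 TPM (log2 change -1.89 ± 0.36, adjusted p = 0.00642). The control SDs show that these 2 libraries were far apart in both genes, and the name of Atr carries the overlap tag. Rad1, of the checkpoint clamp, stood at 24.3 ± 3.79 against 68.1 ± 5.83 TPM (log2 change -1.46 ± 0.20, adjusted p = 0.00214).

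Of 24 E2F-family genes and S-phase regulators, 4 rose and 11 fell, with 9 left uncalled and a median of -0.50. The inhibitor Cdkn1a, a p53 target, was at 97.2 ± 36.3 TPM in Pax5-Etv6 B-ALL and 1.97 ± 1.55 TPM in the Trp53-deficient controls (5.09 ± 0.43, adjusted p = 0.000602). The inhibitor Cdkn1b (1.22 ± 0.24, adjusted p = 0.00706) and the pocket protein Rbl2 (1.04 ± 0.18, adjusted p = 0.00492) were also higher. Skp2, which marks Cdkn1b for destruction, was lower (-1.62 ± 0.24, adjusted p = 0.00266), as were E2f5 (-1.67 ± 0.39, adjusted p = 0.0128) and the E2F partner Tfdp2 (-1.31 ± 0.42, adjusted p = 0.039). Of 32 mitosis genes, 17 fell and 1 rose, and the test called none of the other 14 (median -0.61). The spindle-checkpoint kinases Bub1 (-1.99 ± 0.24, adjusted p = 0.00144) and Ttk (-1.50 ± 0.27, adjusted p = 0.00511) and the mitotic cyclin Ccnb1 (-2.47 ± 0.22, adjusted p = 0.000652) had the largest falls of the list, and the kinase Aurkb was the gene that rose (0.57 ± 0.18, adjusted p = 0.0386). Without control replicate 1 the calls of E2f5 (0.0895), Tfdp2 (0.213) and Aurkb (0.162) were lost. So were that of E2f5 without control replicate 2 (0.056), that of Tfdp2 without Pax5-Etv6 replicate 1 (0.0644) or 2 (0.0664) and that of Aurkb without Pax5-Etv6 replicate 2 (0.0834) or 3 (0.113). Tfdp2 and Aurkb were also not called with no filter (0.083 and 0.0697) or without a mean-variance trend (0.0511 and 0.073), and with centring Tfdp2 (0.222) and Ttk (0.0504) were not called. E2f5 and Rbl2 carry the overlap tag. The medians of these lists and of the 49 genes all lay below that of all tested genes, and no difference between lists was tested.

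**Figure D4:**
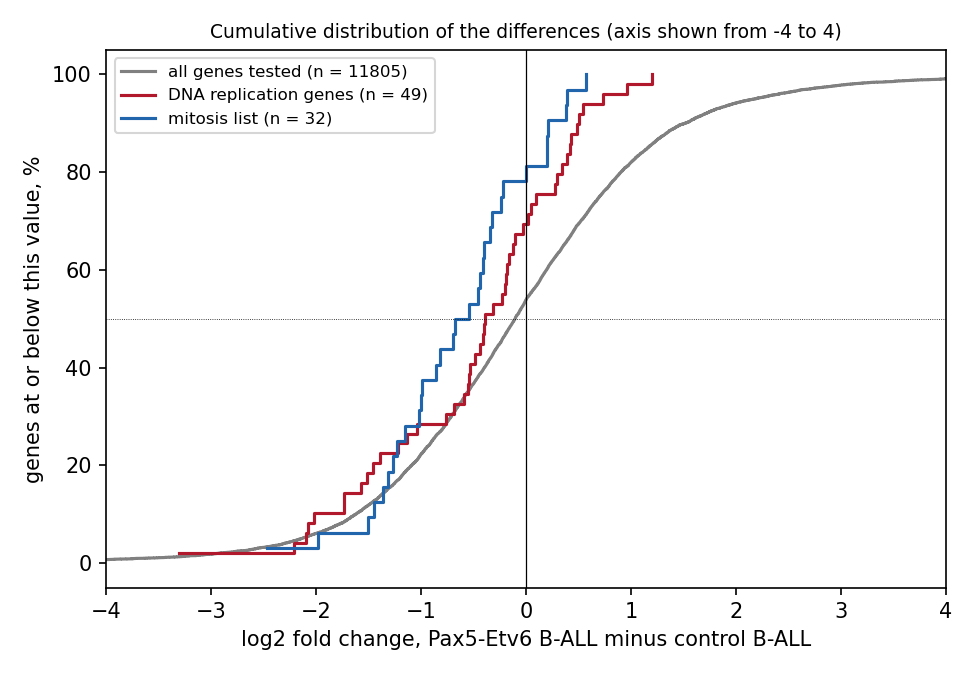
Cumulative percentage of genes at or below each log2 fold change (Pax5-Etv6 B-ALL minus control B-ALL) for all 11805 tested genes, the 49 DNA replication genes and the 32 genes of the mitosis list. The curve of the replication genes reaches 50% at -0.39, that of all tested genes at -0.11 and that of the mitosis list at -0.61.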

How the data were processed

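The authors deposited 1 table per library with TPM values per gene entry. Per the submitters' processing notes, the tools were HTSeq 0.5.3 and DESeq2 1.4.1 and the build mm9, each listed without its step. For the aligner, the gene models and strand in counting: not given in the sources used here. The 49 names were matched to entries after removing any suffix that starts with _IMP or _ENSMUSG. A gene was fitted if 2 or more of the 5 libraries reached 1 TPM, on log2(TPM + 1), by limma 3.58.1 (R 4.3.3; 2 groups without covariates, eBayes with trend, two-sided tests, residual degrees of freedom 3), with Benjamini-Hochberg adjustment over all 11805 genes. The fit was tested on simulated data. TPM values above 0 in at least 2 libraries were whole multiples of the worth of 1 read in 16538 of 16538 entries (tolerance 1e-06), and voom (limma) was run on these reads. Of the 49 genes, 9 carry an overlap tag, as do 14.3% of all entries. The genes and lists were chosen with earlier results of these data known. Values per library are given for called replication genes that changed by 1 or more on the log2 scale, for the largest rises and for complexes whose members differ in direction, and added for most others. From each other list up to 3 called genes per direction with the largest change are named, plus Rrm2b, Tyms, Cdkn1a, Mki67, Ccnb1, Pold3, Pole3 and Pole4. The ChIP samples were not analysed here.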

Additional observations from a re-analysis of the deposited data

How the results depend on the processing

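Under the 17 alternatives the count of replication genes called lower stayed within 1.5 times of 19, except with each library centred on the replication genes, where 10 were lower and 18 higher. With that centring, 1365 of all 11805 tested genes were called lower and 5022 higher, and their median was 0.54. The count called higher (5) was 8 under median-of-ratios scaling, 3 without a mean-variance trend and 2 without tagged entries. Leaving out Pax5-Etv6 replicate 1, 2 or 3 gave 5, 2 and 2 higher and 18, 15 and 15 lower genes. In the same fits 54.2%, 41.9% and 42.7% of all tested genes were called. A fit without a control replicate holds 1 control library, so only medians of the replication genes are given for it here. Without control replicate 1 or 2 these were -0.45 and -0.21, beside -0.08 and -0.007 for all tested genes. The median log2 fold change of the 49 genes was -0.39, ran from -0.45 to -0.21 with a library left out, and was 0.26 with centring. Median-of-ratios scaling moved the median of all tested genes from -0.11 to -0.00250; relative to that median the replication genes stood at -0.28 under the settings used and between -0.38 and -0.16 under all alternatives. Genes of the other lists called higher numbered 12, 31 with centring, and 5 to 15 with a library left out; those called lower numbered 60, 21 with centring and 43 to 58 with a library left out.

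Signs turned as follows. With centring, Cdc45 stood at 0.45, Dut at 0.0498, Gins3 at 0.46, Gmnn at 0.21, Mcm10 at 0.42, Mcm4 at 0.54, Mcm6 at 0.44, Mcm7 at 0.26, Orc1 at 0.23, Pcna at 0.49, Pola2 at 0.62, Pole2 at 0.0913, Prim1 at 0.10, Rfc2 at 0.33, Rfc3 at 0.25, Rfc5 at 0.15, Rpa2 at 0.52, Rrm2 at 0.11 and Mki67 at 0.30. Centring adds the same amount to every gene of a library. Median-of-ratios scaling, quantile normalization and voom gave Mcm4 0.00940, 0.00217 and 0.00922 and Pola2 0.0825, 0.0962 and 0.0842, rescaling without the highest genes gave Pola2 0.0408, and quantile normalization gave Rpa2 4.84e-05. With a library left out, Cdc45 ran from -0.45 to 0.0629, Cdt1 from -0.0145 to 0.60, E2f1 from -0.22 to 0.31, Pcna from -0.40 to 0.0855, Pola2 from -0.12 to 0.12, Pold2 from -0.18 to 0.21, Prim2 from -0.00920 to 0.25 and Tyms from -0.19 to 0.19. For signs that turned under the other settings the cause was not tested.

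No paired analysis was possible because the labels carry no replicate numbers that link libraries of the 2 groups.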
